A study of Arabidopsis thaliana with 9 samples.

Results

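The F1 hybrid of the Arabidopsis thaliana accessions Col and C24 was compared with the mid-parent value, the level a transcript would have if the hybrid lay midway between its parents. The mid-parent value of a probe set was the arithmetic mean of the Col level and the C24 level on the linear scale. All 9 arrays of the series entered the comparison, 3 of Col, 3 of C24 and 3 of F1. Every sample was RNA from whole seedlings without root at 10 DAS, the time unit written in the labels, grown at 22 C with a 16 h and 8 h photoperiod. Col and C24 are inbred accessions with no transgene or treatment named in the labels, and the F1 is their cross. The labels do not say which accession was the seed parent or how many plants made up a sample. Replicates are called biological, and p-values here measure the spread between these samples.

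A hybrid carries an allele of each gene from each parent. If both alleles keep their parental activity, the transcript level is additive and equals the mid-parent value. A level near that of a single parent is called dominant, and a level beyond both parents is called transgressive. Col and C24 are a pair much used to study hybrid vigour, the larger growth of an F1 over its parents. In these accessions defence transcripts under salicylate control are known to differ, with C24 the higher.

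Signals are array intensities on a linear scale after quantile normalization, and n = 3 arrays for each group throughout. Of 22746 probe sets, 15922 with a mean signal of at least 11.1 were tested. A difference d is the log2 of F1 over the mid-parent value, followed by its standard error. An adjusted p is limma's moderated test with Benjamini-Hochberg adjustment over the 15922 probe sets, and a call is an adjusted p under 0.05. The array probes were designed on Col sequence, so a lower C24 signal from weaker binding and one from less transcript cannot be told apart. In whole seedlings, fewer cells of a type and less RNA per cell cannot be told apart either.

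The arrays had been scaled to a common trimmed mean, and replicates resembled each other with correlations of 0.944 to 0.971 across tested probe sets. On the first principal component, with 38.9% of the variance, the F1 arrays, at -8.22 to -3.26, lay between those of Col (-39.4 to -37.1) and those of C24 (41.2 to 47.4). A further component, with 19.4%, put the replicate 1 arrays of all 3 groups at 29.4 to 34.4 and the other 6 below 0. Among shoot markers, RCA, the activase of the carbon-fixing enzyme Rubisco, was bright, with mean signals of 5817 for Col, 5583 for C24 and 5651 for F1. Of the root markers, the root hair expansin EXPA18 was near the filter level at 19.9, 9.6 and 17.3, while the beta-glucosidase PYK10 was at 279, 1362 and 655. The flower and seed markers were not named by a probe set here. F1 replicate 2 stood apart from the other 8 arrays in plastid-encoded transcripts, and results that rest on it are given with and without it.

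Most transcripts of the F1 lay near the mid-parent value. The median d over all tested probe sets was -0.02, with quartiles of -0.15 and 0.10, and 5th and 95th percentiles of -0.39 and 0.36. The estimate was 1.5-fold or more from the mid-parent value for 552 probe sets, 3.47% of those tested, with 258 above and 294 below. It was 2-fold or more for 116, with 45 above and 71 below, and 4-fold or more for 13, with 1 above and 12 below. Against this, 1 probe set rose above the mid-parent value (0.00628%) and 5 fell below it (0.0314%) at an adjusted p under 0.05. At an unadjusted p under 0.05 the counts were 333 above (2.09%) and 470 below (2.95%), 803 in all. This split moved with the scaling, to 404 above and 319 below on the deposited scale and to 258 and 537 after shifting the arrays to a common median. Where nothing differs, a threshold of 0.05 passes about that fraction of tests, and 803 of 15922 is close to it. With a term for replicate number added to the fit, a replicate block, the counts were 514 above and 609 below. The closeness to 0.05 thus belongs to the fit without the block. The 803 are not read as departures from the mid-parent value.

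**Figure D1:**
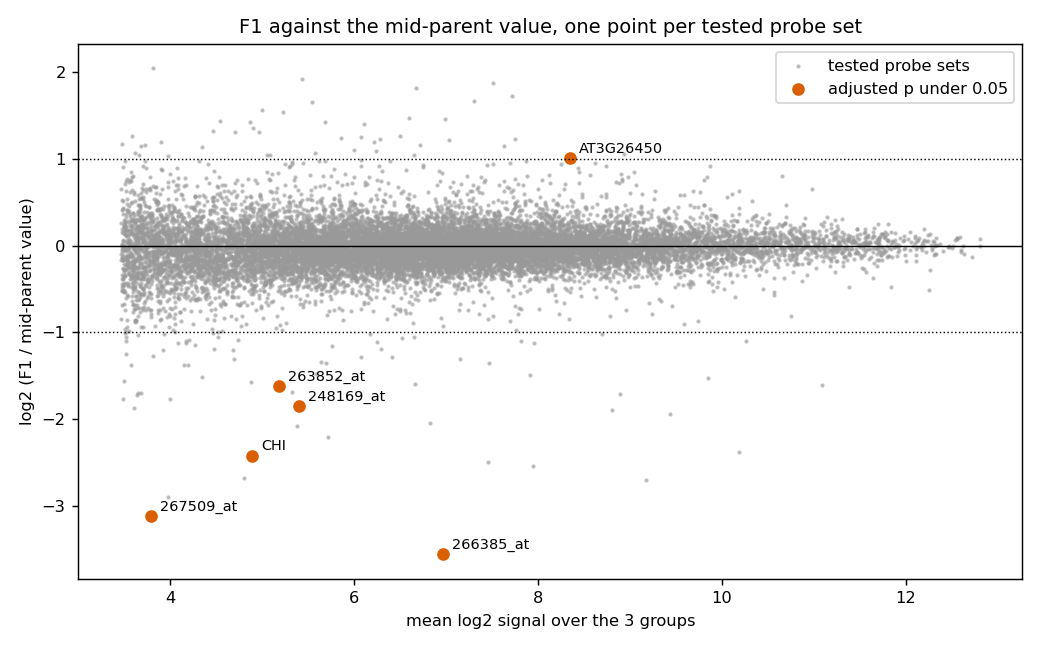
Log2 of F1 over the mid-parent value (vertical axis) against the mean log2 signal of the 3 groups (horizontal axis), with 1 point for each of the 15922 tested probe sets. Dotted lines mark a 2-fold difference, and the 6 orange points have an adjusted p under 0.05, 1 above and 5 below the mid-parent value.

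The number of arrays sets how closely this could be measured. The median half-width of the 95% interval around d corresponded to 1.32-fold, with quartiles of 1.25 and 1.46. For 8819 probe sets, 55.4%, the whole interval lay within 1.5-fold of the mid-parent value, and for 14012, 88.0%, within 2-fold. With probe sets divided by mean signal into 3 parts of equal size, the interval was within 1.5-fold for 27.0% of the dim part, 63.4% of the middle part and 75.8% of the bright part. The median d was -0.05 in the dim part and -0.01 in the bright part.

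The 6 called probe sets all had the same adjusted p, 0.0254 by limma, and 2 of them name a gene. The single rise was AT3G26450, a member of the major latex protein family. Its signals were 394, 323 and 346 in Col, 172, 186 and 189.8 in C24, and 517, 509 and 599 in F1. All 3 F1 arrays were above all 6 parental arrays. The F1 mean of 542 ± 49.9 (SD) was 2.02 times the mid-parent value of 269, with d 1.01 ± 0.12. Against the higher parent alone, Col, the log2 difference was 0.61 with an adjusted p of 0.114, so the F1 was not called above both parents.

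CHI, a chitinase of the kind that attacks fungal cell walls and is induced in salicylate responses, fell below the mid-parent value. Its signals were 14.3, 13.7 and 11.9 in Col, 179.7, 179.6 and 83.7 in C24, and 15.6, 11.3 and 16.4 in F1. The F1 and Col arrays overlapped near the filter level, and every C24 array was far brighter than every F1 array. The F1 mean of 14.4 ± 2.77 (SD) stood against a mid-parent value of 80.5, with d -2.42 ± 0.29. The difference from Col was 0.10 with an adjusted p of 0.969, and that from C24 was -3.29 with an adjusted p of 0.000356.

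The other 4 called probe sets are unnamed in the annotation used here and are given by their identifiers. For 266385_at, Col gave 27.7, 20.6 and 43.0, C24 gave 1985, 1360.2 and 717, and F1 gave 50.3, 65.4 and 48.2. All F1 arrays were above the 3 Col arrays and far below the 3 C24 arrays, with d -3.56 ± 0.36. For 248169_at, Col gave 15.4, 17.4 and 15.6, C24 gave 239, 164 and 141, and F1 gave 25.8, 31.0 and 23.9, with d -1.85 ± 0.21. For 263852_at, Col gave 14.8, 12.2 and 11.9, C24 gave 154, 147 and 133, and F1 gave 20.3, 27.2 and 30.5, with d -1.62 ± 0.19. In these 3 probe sets the F1 lay between its parents without overlap and closer to the dim Col level.

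The fifth fall, 267509_at, had the opposite parental order. Col gave 52.1, 68.1 and 47.1, C24 gave 7.45, 13.8 and 18.7, and F1 gave 4.98, 2.57 and 4.63. The 3 F1 arrays were below all 6 parental arrays and below the filter level of 11.1, where a signal was not separated from background. It passed the filter through the Col signal. The fitted d of -3.11 ± 0.36 therefore has no settled size, and with a floor of 16 on the signal it was -1.17. Of the 5 falls, 4 thus had C24 as the bright parent and an F1 from 0.10 to 0.99 log2 above Col, a difference not called in any of them.

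**Figure D2:**
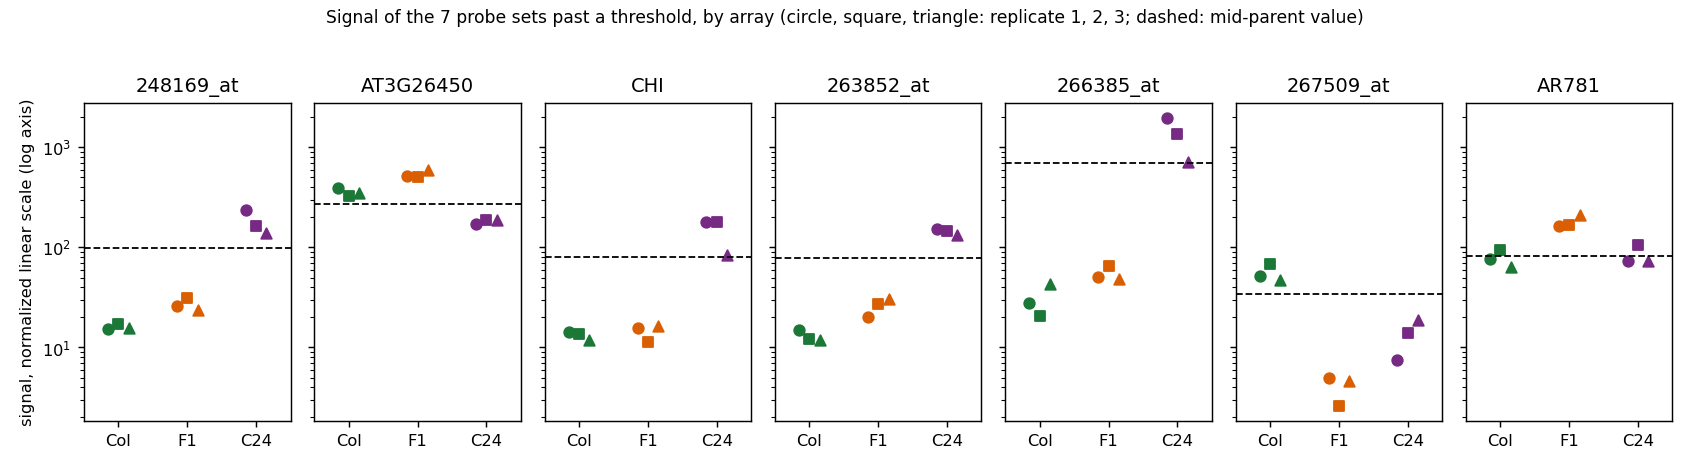
Normalized signal on a log axis for the 6 called probe sets and AR781, by group, with a circle, square and triangle for replicates 1, 2 and 3 and a dashed line at the mid-parent value. The 3 F1 arrays are above the line for AT3G26450 and AR781 and below it for the other 5.

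These calls were often lost when single arrays were left out, which also lowers the degrees of freedom. With all 9 arrays kept, the replicate block also left 0 calls, and the limma adjusted p of the 6 was then 0.055 to 0.077. Leaving out F1 replicate 1, 2 or 3, Col replicate 2 or C24 replicate 2 left 0 calls by limma in either direction, with 282 to 321 higher and 375 to 533 lower at an unadjusted p under 0.05. Over the 9 arrays left out singly the count ranged from 0 to 1 higher and from 0 to 4 lower. The probe set 266385_at kept its call in 4 of the 9 and AT3G26450 in 1 of the 9. The direction held throughout, with d of 0.94 to 1.06 for AT3G26450, -2.76 to -2.25 for CHI and -3.95 to -3.23 for 266385_at, and adjusted p of up to 0.167, 0.187 and 0.141.

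The F1 was above both parents, with an adjusted p under 0.05 against each, for 1 probe set (0.00628%), and below both for 0. The tool was limma, and this pair of tests is separate from that against the mid-parent value. The probe set names AR781. Its signals were 77.1, 94.3 and 64.1 in Col, 72.7, 106 and 73.8 in C24, and 164, 169 and 209 in F1. The parents overlapped, and all F1 arrays lay above all parental arrays, at 181 ± 24.9 (SD) on average. The log2 differences were 1.21 from Col, with an adjusted p of 0.0375, and 1.12 from C24, with an adjusted p of 0.0231. Against the mid-parent value d was 1.16 ± 0.18 with an adjusted p of 0.169. The count above both parents became 0 once any single F1 or Col array, or C24 replicate 1, was left out.

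Without a test, all 3 F1 arrays were above all 6 parental arrays for 119 probe sets (0.747%) and below them for 196 (1.23%). Of these, 29 above and 39 below were also 1.5-fold or more from the mid-parent value, and 14 and 8 were 2-fold or more. Interchangeable arrays would separate so for a share of about this size in each direction. The arrays here were not interchangeable, since Col, C24 and the replicate 1 arrays stood apart on the principal components. That share is therefore a rough guide that cannot show whether the counts exceed it, and neither count is read as a result. For genes picked by a small p or a large d, a lack of overlap is a description only.

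Among genes with a bright parent or F1, further large differences above the mid-parent value did not pass the adjusted threshold. AT3G16530, a legume-type lectin, gave 121, 66.0 and 188 in Col, 110.2, 158 and 104 in C24, and 258, 329 and 945 in F1. The F1 arrays all exceeded the parental ones, replicate 3 by far the most, and d was 1.87 ± 0.42 (adjusted p 0.600). STZ, a zinc finger repressor of salt and drought responses also called ZAT10, gave 270.2, 135 and 512 in F1 against 35.0 to 88.0 in Col and 61.1 to 214 in C24. Its d of 1.46 ± 0.52 (adjusted p 0.954) was 0.92, 0.12 and 3.12 in replicates 1, 2 and 3 set against the parents of the same number. BGLU28, a beta-glucosidase, gave 294, 143 and 361 in F1 against 15.6 to 78.9 in Col and 65.6 to 121 in C24, with d 1.82 ± 0.52 (adjusted p 0.918).

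AT4G01870 was the most even of these genes. It gave 56.4, 93.1 and 69.99 in Col, 113, 86.7 and 65.6 in C24, and 156, 165 and 169 in F1. No parental array reached the lowest F1 array, and d was 1.05 ± 0.20 (adjusted p 0.386). The ankyrin protein gene AT2G24600, the sugar transporter gene AT3G05400, AT5G35735 and the berberine bridge enzyme-like gene AT4G20830 had d of 1.40, 0.97, 0.96 and 0.93, with F1 arrays that overlapped those of the parents.

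Below the mid-parent value, AT1G67865 had d -2.04 ± 0.37 (adjusted p 0.328). It gave 532, 1060.0 and 780.1 in Col, 18.4, 17.4 and 26.1 in C24, and 126, 134 and 50.7 in F1, which lay between the parents without overlap. The jacalin-type lectin AT1G52100 had C24 as the bright parent, at 218 to 259 against 25.1 to 36.4 in Col. Its F1 arrays, at 72.1, 89.3 and 38.4, lay between them with d -1.11 ± 0.27 (adjusted p 0.747). AT2G47880, a plant-specific glutaredoxin, gave 95.03, 61.8 and 95.8 in F1 against 122 to 241 in the parents. All its F1 arrays were below all parental arrays, with d -0.92 ± 0.20 (adjusted p 0.544). AT3G60420 and the RING finger gene AT1G26800 had d of -1.06 and -0.89 with overlapping arrays.

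Whether the F1 lay above or below the mid-parent value was set against the parental difference. Both share the Col and C24 arrays, so the following is a description. In 302 probe sets called at least 2-fold higher in C24 than in Col, the median d was -0.15, and 67.5% were below the mid-parent value, against 54.8% of all tested. The medians by replicate number were -0.18, -0.18 and -0.17. There, 51 were lower than the mid-parent value at an unadjusted p under 0.05, 16.9%, and 12 were higher, with 4 called lower. In 479 probe sets called at least 2-fold higher in Col, the median d was 0.04, 43.8% were below, and 39 were higher at an unadjusted p under 0.05, 8.14%, and 19 lower, with 1 called lower. Where the parents differed by less than 1.25-fold, over 9890 probe sets, the median d was -0.02. The F1 was thus nearer to Col than midway on the linear scale in both classes of unequal parents, by a small margin.

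**Figure D3:**
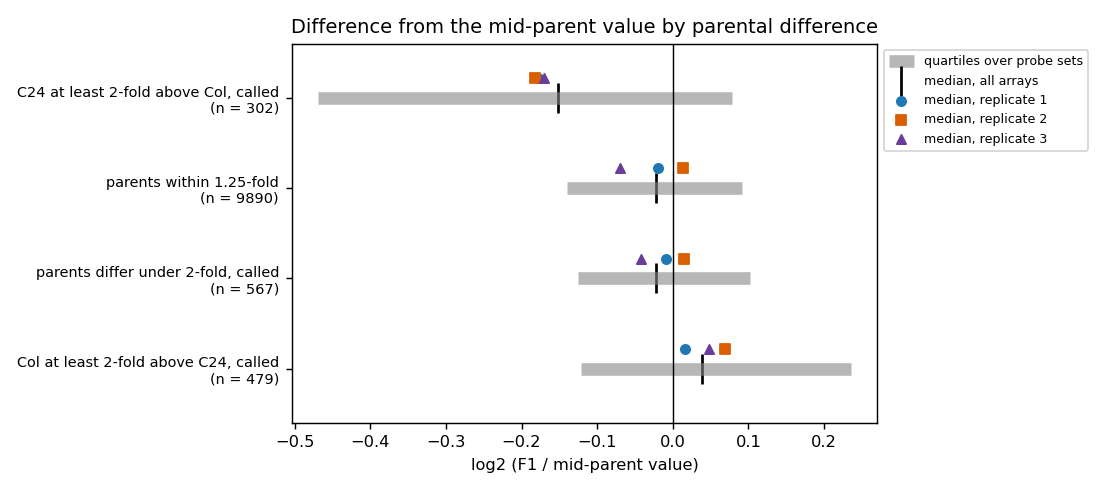
Log2 of F1 over the mid-parent value (horizontal axis) for probe sets grouped by the difference between Col and C24, with the median as a vertical tick, the quartiles over probe sets as a grey bar and the medians by replicate number as symbols. The C24-high class lies at a median of -0.15, with all 3 replicate medians between -0.18 and -0.17, and the Col-high class at 0.04.

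The scale of the mid-parent value weighs on such genes. With the mean of both parents taken on the log2 scale, 33 probe sets were called higher and 1 lower. Of the 33, 30 had parents at least 2-fold apart, 25 with Col and 8 with C24 as the brighter parent. The median became 0.30 in the Col-high class and 0.09 in the C24-high class, so the C24-high class changed its side of the mid-parent value with the scale. On that scale CHI, 266385_at, 248169_at and 263852_at lost their calls, with differences of -1.59, -1.81, -0.997 and -0.75, while AT3G26450 and 267509_at were still called. Of the other genes named in this report, AR781, scpl42 (1.78) and THI2.2 (1.26) gained a call on it.

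Gene groups were then followed by their function. There were 29 lists with 474 tested genes, each by its brightest probe set, and 27 lists had 5 or more. CHI was the only listed gene called. For comparison, the median d over all 8726 tested genes was -0.03, and 55.5% were below the mid-parent value. At an unadjusted p under 0.05, 169 of these genes were higher (1.94%) and 252 lower (2.89%).

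Chloroplasts keep a small genome of their own for photosystem, ATP synthase and ribosome subunits, while the nucleus encodes the antenna proteins that feed light to the photosystems. Of 41 tested plastid-encoded photosynthesis genes, 38 were below the mid-parent value and 11 at an unadjusted p under 0.05, where 2.89% of all tested genes were, with 0 called and a median d of -0.74. Nearly all of this came with F1 replicate 2. By replicate number the medians were -0.17, -2.31 and 0.01. Without F1 replicate 2, 23 of the 41 were below, 5 were lower and 4 higher at an unadjusted p under 0.05, and the median was -0.02.

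psaB, a core protein of photosystem I, shows the pattern. It gave 2866, 3629.7 and 3167 in Col, 2991, 3087 and 3337 in C24, and 2609, 150.1 and 2875 in F1. F1 replicate 2 alone was low, and the other F1 arrays were near the parents. rbcL, the large subunit of Rubisco, was likewise at 18.3 in F1 replicate 2 and at 180.3 and 149.7 in F1 replicates 1 and 3. petA, which encodes cytochrome f, gave 1688, 1650.5 and 1595 in Col, 563, 543 and 947 in C24, and 459.9, 24.3 and 501 in F1. All F1 arrays were below all parental arrays, with d -2.70 ± 0.83 (adjusted p 0.923), and -1.26 without F1 replicate 2. cemA, a chloroplast envelope protein, ycf4, a photosystem I assembly factor, and atpA of the ATP synthase had d of -2.50, -1.54 and -1.71, and of -1.34, -0.62 and -0.44 without F1 replicate 2. atpA gave 491, 39.1 and 616 in F1. ndhK, of the NADH dehydrogenase-like complex, and psbE, of photosystem II, had d of -0.89 and -0.86, and of -0.57 each without that array.

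The 21 plastid-encoded genes of gene expression, mostly ribosomal proteins and RNA polymerase subunits, had a median d of -0.31, with 15 below. By replicate number the medians were 0.03, -2.03 and 0.30, and without F1 replicate 2 the list's median was 0.17 with 5 below. rps16 gave 11.8, 1.13 and 10.4 in F1 against 13.3 to 28.6 in the parents, all F1 arrays below the parental ones, with d -1.87 ± 0.66 (adjusted p 0.954), and -0.78 without F1 replicate 2. rpl33 and rps18, which encode ribosomal proteins of the large and small subunit, went the other way. rps18 gave 69.8, 116 and 82.6 in Col, 155, 155 and 183 in C24, and 211, 184 and 226 in F1. All 3 F1 arrays, replicate 2 included, were above all parental arrays, with d 0.72 ± 0.17 (adjusted p 0.716). rpl33 had d 0.92 ± 0.25 (adjusted p 0.878), with F1 at 1450.4, 1286 and 1669 and a C24 array, at 1556, among them.

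A ribosomal RNA control was low together with the plastid transcripts in F1 replicate 2, but it was also low in C24. The 25S ribosomal RNA control probe set, left out of the tests, gave 1380, 41.4 and 1807 in F1, 503, 2464 and 1426 in Col, and 90.7, 217 and 44.9 in C24. The plastid-encoded photosynthesis genes had medians of -0.38, -0.22 and -0.40 in the same C24 arrays, and of -2.03 in F1 replicate 2. These are medians of log2 signal relative to each gene's mean over the parental arrays. The part of the 25S control in the plastid result was not tested.

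**Figure D4:**
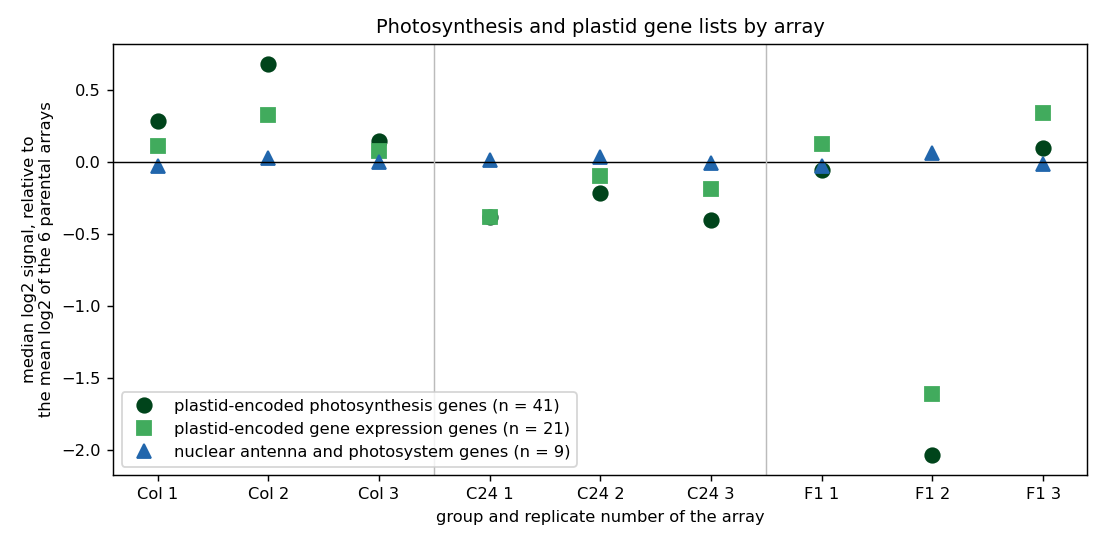
Median log2 signal of 3 gene lists on each array (vertical axis, relative to each gene's mean log2 over the 6 parental arrays), with arrays along the horizontal axis. In F1 replicate 2 the plastid-encoded photosynthesis genes (41 genes) are at -2.03 and the plastid gene expression genes (21 genes) at -1.61, while the nuclear genes (9) are at 0.06.

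Nuclear photosynthesis genes stayed close to the mid-parent value, F1 replicate 2 included. The 9 tested antenna and photosystem genes had a median d of -0.01, and the 95% interval of all 9 lay within 2-fold of the mid-parent value. The scaling matters for these bright genes, with medians of -0.21 on the deposited scale and -0.28 after a common median. LHCB4.3, a minor antenna protein of photosystem II, gave 932, 869 and 928 in Col, 952, 803 and 651 in C24, and 1402, 1052 and 1011 in F1. The F1 exceeded the parents on every array, with d 0.42 ± 0.14 (adjusted p 0.947). LHCB4.2 had d 0.14 ± 0.07, which was below 0 under both other scalings, and PSAN, a photosystem I subunit, -0.12 ± 0.07. The 4 Calvin cycle genes had d from -0.16 to 0.20, and the 8 chlorophyll synthesis genes from -0.24 to 0.15. PORB, which makes the light-driven step of chlorophyll synthesis, had d -0.24 ± 0.16. GSA1, an early enzyme of the pathway, gave 737, 725 and 738 in F1, all below the parental 763 to 1011, with d -0.22 ± 0.11. HEME1 had d 0.15 ± 0.13.

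Genes of the cytosolic ribosome, whose subunits set the capacity for protein synthesis, had medians near 0 under quantile normalization. The 43 small subunit genes had a median d of -0.02, with 2 higher and 1 lower at an unadjusted p under 0.05, and the 78 large subunit genes -0.03, with 0 and 2. For all 43 of the former and 74 of the latter the interval was within 2-fold. Under the deposited scaling and the common median these medians were between -0.19 and -0.10. AT5G28060, a small subunit protein gene, gave 689.7, 769.8 and 822 in Col, 661, 735 and 658 in C24, and 1006, 1026 and 972 in F1. Every F1 array exceeded every parental array, with d 0.47 ± 0.10 (adjusted p 0.472). AT5G07090 had d 0.25 ± 0.09 with F1 above all parental arrays, while AT4G34670, AT3G09200, AT3G51190 and AT3G16080 had d of -0.34, -0.18, -0.59 and -0.22.

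Salicylate and pathogen response genes were the list in which a call fell. Of 8 tested genes, CHI fell and 6 were below the mid-parent value, with a median d of -0.33. At an unadjusted p under 0.05, 3 including CHI were lower, against 2.89% of all tested genes. The list was brighter in C24, with a median log2 of C24 over Col of 1.90. In the class called at least 2-fold higher in C24, 16.9% were lower at that threshold and 67.5% below the mid-parent value. CML41, a calmodulin-like protein, gave 10.8, 16.3 and 16.5 in Col, 55.0, 54.1 and 46.0 in C24, and 12.9, 8.60 and 13.8 in F1. The F1 overlapped Col and lay below all C24 arrays, with d -1.51 ± 0.24 (adjusted p 0.203). RING1, a ubiquitin ligase tied to cell death, gave 128, 173 and 75.6 in Col, 544, 600.4 and 312 in C24, and 159.8, 161.9 and 160.5 in F1. The F1 was again within the Col range and below C24, with d -0.87 ± 0.29 (adjusted p 0.947).

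F1 replicate 3 differed from the other F1 arrays in this list. The list's medians by replicate number were -0.86, -0.76 and 0.45, and the median was 0.03 without F1 replicate 1 and -0.65 without F1 replicate 3. AT5G55450, a lipid transfer protein gene, gave 194, 281 and 893 in F1 against 175 to 219.9 in Col and 608 to 994 in C24. In 2 F1 arrays it was near Col and in replicate 3 within the C24 range. WRKY53, a defence and senescence transcription factor, gave 35.7, 66.4 and 85.4 in F1 and from 6.62 to 76.9 in the parents, with d 1.31.

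Other defence families showed no called member. Of 48 tested NLR genes, the intracellular immune receptors, 29 were above and 19 below the mid-parent value, with a median d of 0.04 and 2 higher at an unadjusted p under 0.05. AT1G66090 gave 24.4, 33.6 and 18.2 in Col, 31.6, 41.8 and 15.9 in C24, and 54.0, 51.2 and 55.8 in F1. The F1 arrays lay above those of both parents, which overlapped each other, with d 1.04 ± 0.30 (adjusted p 0.923). AT2G14080 had d 0.72 ± 0.29, with F1 near the brighter Col, and AT1G72900 0.75 ± 0.38, with 262 in F1 replicate 3 and 65.3 and 80.6 in the others. Of 5 defensin and thionin genes, a class of antimicrobial peptide genes, PDF1.2b gave 67.9, 54.4 and 48.9 in F1 against 11.3 to 37.0 in the parents. No parental array reached the F1 arrays, with d 1.35 ± 0.31 (adjusted p 0.600), though its probe set may bind other family members. PDF1.2 had d 0.64 ± 0.30, and THI2.2 0.17 ± 0.23, with F1 between Col and C24.

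Among enzymes of secondary metabolism and detoxification, 18 of 27 UDP-glycosyltransferase genes were above the mid-parent value, with a median d of 0.06 and 5 higher and 0 lower at an unadjusted p under 0.05, against 1.94% and 2.89% of all tested genes. The 5 became 3 without F1 replicate 2 and 1 without F1 replicate 3. UGT72B3, UGT73B1 and UGT74D1 had d of 0.55 ± 0.20, 0.54 ± 0.20 and 0.50 ± 0.21. The 13 cytochrome P450 genes had a median of -0.09. CYP71B22 gave 20.8, 88.4 and 154 in F1, with d 1.56 ± 0.68, CYP71B23 had d -1.14 ± 0.49, and CYP71B34 0.27 ± 0.13. The 9 glutathione transferase genes had a median of -0.07, with GSTU23 at 0.27, GSTU20 at 0.10 and GSTU28 at -0.20. GSTU20 was below 0 under both other scalings. The 19 class III peroxidase genes had a median of -0.01, with AT2G34060 at -0.42 ± 0.17, its F1 arrays all below the parents, AT5G64110 at -0.57 and PRXR1 at 0.09, the last below 0 under both other scalings. For 7 flavonoid and anthocyanin genes the median was 0.08, with -0.41, -0.44 and 0.87 by replicate number. UGT78D2, UGT78D1 and CHIL there had d of -0.27, 0.23 and 0.23. The 12 beta-glucosidase genes had a median of -0.12, with BGLU44 at 0.28 ± 0.12 and BGLU42 at 0.28 ± 0.16, and the 15 serine carboxypeptidase-like genes 0.02. scpl42 among the latter gave 229, 283 and 238 in Col, 9.52, 8.69 and 8.42 in C24, and 155, 161 and 168 in F1. It lay between the parents without overlap and nearer to Col, with d 0.32 ± 0.14. scpl35 and scpl48 had d of 0.37 and 0.32.

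Growth-related groups held no called gene, and several were measured coarsely. The 95% interval lay within 2-fold of the mid-parent value for 8 of 18 expansin and xyloglucan endotransglucosylase genes, 6 of 8 endoglucanase, 13 of 16 trichome birefringence-like, 6 of 9 auxin and 10 of 10 histone genes. The 18 expansin and xyloglucan endotransglucosylase genes, which loosen cell walls, had a median d of -0.07 with 13 below, and 0 at an unadjusted p under 0.05 in either direction. EXPA20, EXLB1 and EXPB1 had d of -0.32, 0.14 and -0.54. The 8 endoglucanase genes of the GH9 class, also wall enzymes, had a median of 0.14 with 7 above, among them GH9B8 at 0.33 ± 0.35, GH9B13 at 0.15 and GH9A3 at 0.15. The 16 trichome birefringence-like genes, which act in acetylating wall polymers, had a median of -0.07, with TBL23 at -0.42 ± 0.19, TBL38 at -0.40 and TBL36 at -0.27. Of 9 auxin signalling and conjugation genes 8 were below, with a median of -0.09 and 0 at an unadjusted p under 0.05. GH3.17 and GH3.9, of the auxin-conjugating family, and IAA29, an auxin response repressor, had d of -0.56 ± 0.26, -0.30 ± 0.18 and -0.59 ± 0.62. Of 10 histone genes 9 were below, with a median of -0.18, and 1 was lower at an unadjusted p under 0.05. That gene, AT3G09480, gave 30.1, 36.2 and 36.8 in F1, within the Col range, with d -0.43 ± 0.17, and AT2G30620 and HTB1 had d of -0.21 and -0.20.

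Among stress and storage groups, 6 of 7 cold and abscisic acid response genes were below the mid-parent value, with a median d of -0.34 and 2 at an unadjusted p under 0.05, against 2.89% of all tested genes lower. COR15A, a chloroplast protein that protects membranes in freezing, gave 2367, 2733 and 1618 in Col, 1342, 1130.0 and 1447 in C24, and 1101, 1147 and 1395 in F1. The F1 overlapped C24 and lay below Col, with d -0.53 ± 0.17 (adjusted p 0.923). COR15B, its close paralogue, had d -0.37 ± 0.14, and COR47, a dehydrin, -0.44 ± 0.29. The 9 heat shock genes had a median of -0.11, and -0.27, -0.33 and 0.51 by replicate number. Relative to each gene's mean log2 over the 6 parental arrays, their F1 medians were 0.15, -0.27 and 0.15. Differences between the parental arrays thus enter the values by number. HSA32, needed to keep acquired heat tolerance, gave 49.4, 35.4 and 52.6 in Col, 53.9, 61.5 and 49.9 in C24, and 32.6, 29.4 and 32.2 in F1. All F1 arrays were below all parental arrays, with d -0.67 ± 0.17 (adjusted p 0.747). AT5G48570 and AT2G29500 had d of 0.49 and 0.33.

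In the starch list of 10 genes the median was 0.13, with SBE2.2, a branching enzyme, at 0.22 ± 0.11 and APL4, a subunit of ADP-glucose pyrophosphorylase, at 0.39. APS4 and APS3 entered that list by their symbols but encode ATP sulphurylases of sulphate assimilation. APS4 gave 268, 272 and 182 in Col, 342, 259 and 268 in C24, and 139.9, 174 and 166 in F1. All F1 arrays were below the parents, with d -0.72 ± 0.17 (adjusted p 0.661). The 7 SWEET sugar transporter genes had a median of 0.04, with SWEET2 at 0.40, SWEET16 at -0.29 and SWEET17 at 0.25. The 7 AGAMOUS-like MADS genes had a median of 0.10, with AGL24, a promoter of flowering, at -0.67 ± 0.26, AGL87 at 0.60 ± 0.24 and AGL26 at 0.19. The 8 tetraspanin genes had a median of -0.05, with TET3, TET5 and TET8 at -0.23, -0.17 and 0.25. The clock gene GI had d -0.09 ± 0.13.

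**Figure D5:**
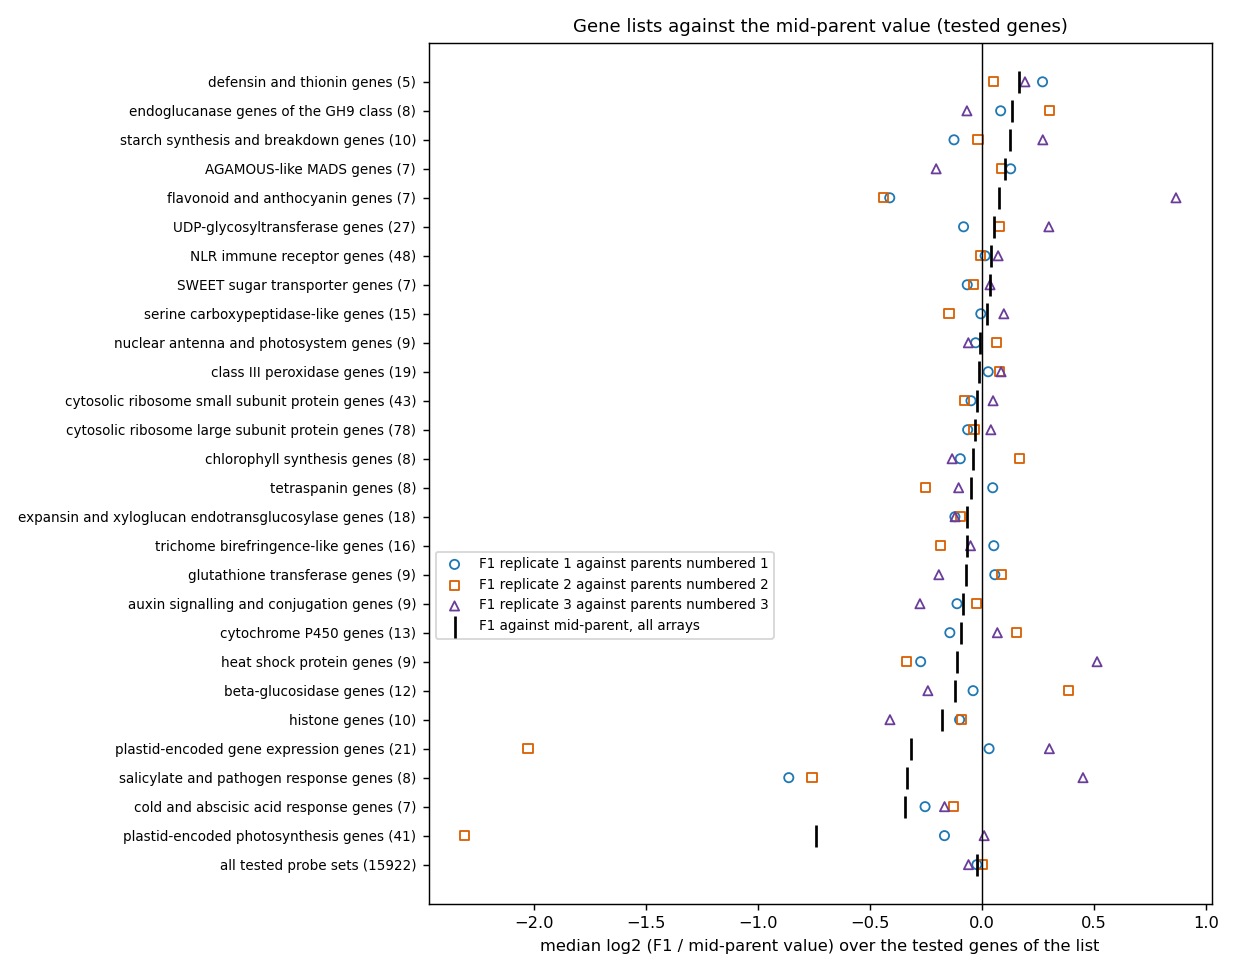
Median log2 of F1 over the mid-parent value (horizontal axis) for each list with 5 or more tested genes (number in brackets) and for all tested probe sets, as a black tick over all arrays and as a circle, square and triangle for F1 replicates 1, 2 and 3 against parents of the same number. The plastid lists are set apart by the squares of replicate 2 at -2.31 and -2.03, while most other lists have symbols on both sides of 0 or close to it.

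Set against the parents of their own number, the 3 F1 arrays gave differences that correlated little across transcripts. Across the 15922 probe sets, the differences of F1 replicates 1 and 2 from the parents of their own number correlated at 0.24, those of 1 and 3 at 0.08 and those of 2 and 3 at -0.01. These are correlations over probe sets, which are not independent. Each difference also holds the spread of its own Col and C24 arrays, so low values do not show that the F1 arrays disagree. All 3 F1 arrays were above the parents of their own number for 1964 probe sets, 12.3%, and below them for 2835, 17.8%. These shares were not tested.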

How the data were processed

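Intensities on a linear scale, 1 value for each probe set and array, were deposited by the authors. GCOS is the software named per the submitters' processing notes, with its version and settings not given in the sources used here. Leaving out 2% of values at each end, every column had a mean of 150.01 to 150.02. The 64 control probe sets were set aside, and limma 3.58.1 (R 4.3.3) quantile normalized the rest before a floor of 1 and log2. The filter kept probe sets from the 30th percentile of mean log2 signal upward. A limma fit with 1 mean for each group (lmFit, eBayes with a trend) used all 9 arrays. The mid-parent value's variance came from the delta method, and tests were two-sided. The fit was tested on simulated data with independent noise on each array and differences placed only in probe sets above the median signal. That test does not cover an effect shared by replicate number or differences in dim probe sets. Platform annotation and TAIR10.1 symbols named 1 gene for 13513 probe sets, several for 503 and none for 8730.

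Named were all called probe sets, up to 10 bright genes in each direction with an unadjusted p under 0.05 and all F1 arrays on the same side of their own-number mid-parent value, the 3 smallest p in each list of 5 or more tested genes, and PORB and GI. psaB, rbcL, AT5G55450 and WRKY53 were chosen after their values were seen. The comparison and the lists were chosen with earlier results of these data known. Alternatives were other scalings, filters, floors, variance models, mid-parent scales, a replicate block and left-out arrays. Figures were drawn with matplotlib 3.10.9.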

Additional observations from a re-analysis of the deposited data

How the results depend on the processing

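Against 1 higher and 5 lower calls, the deposited scaling gave 1 and 3, a common median 1 and 5, no filter 3 and 0, a filter at the 50th percentile 1 and 1, a floor of 16 gave 1 and 12, and the log2-scale mid-parent 33 and 1. The replicate block gave 0 and 0, as did the matched mid-parent with replicate block. Calls above both parents numbered 0 on the deposited scale and without a variance trend, 2 without a filter and 2 with the block. Leaving out single arrays gave 0 to 1 higher, 0 to 4 lower, 0 to 1 above both and 0 to 1 below both. Without all arrays numbered 1, 2 or 3, chosen after seeing the data, there were 0 higher, 0 to 1 lower and 0 above both. The cause was not tested.

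Deviations from the group means correlated between groups at 0.46 to 0.49 for replicate 1 and at 0.01 to 0.20 for same-number pairs of replicates 2 and 3. Pairs of a replicate 2 with a replicate 3 array gave 0.08 to 0.20, and pairs of replicate 1 with another number -0.35 to -0.10. The replicate 1 arrays thus shared a deviation, while numbers 2 and 3 were not told apart. For that reason the numbers are not taken to pair all the samples. Signs turned for some uncalled genes. On the deposited scale and after a common median, LHCB4.2 was at -0.10 and -0.16, GSTU20 at -0.051 and -0.12, PRXR1 at -0.15 and -0.21, and THI2.2 at -0.038 after the latter. Leaving out single arrays, UGT78D1 ran from -0.024 to 0.54, EXPB1 from -1.16 to 0.16 and GI from -0.19 to 0.033. Without replicate 3 of every group UGT78D1, CHIL and GH9B13 were at -0.11, -0.076 and -0.044, without replicate 2 THI2.2 and GH9A3 at -0.055 and -0.028, and without replicate 1 EXLB1 at -0.031. The 6 called probe sets kept their call in 45 of 128 values under the alternatives and lost it in 83, with 0 changes of sign. Among the uncalled named genes, 4 values gained a call and 16 turned. Of those that gained, 3 came with the log2-scale mid-parent and 1, of CML41, with a floor of 16. No detection calls were used, and signal near 11.1 limits the dim genes.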
